A study of Mus musculus with 6 samples.

Results

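The 3 genes described here encode the first enzymes of serine and polyamine synthesis, Phgdh, Psat1 and Odc1. They were found by symbol in the deposited expression table, where they were 3 of 1018 listed genes, and all 3 were present. The samples were bulk RNA libraries of spleen CD8+ T cells sorted with an M45 tetramer, which binds T cells specific for a peptide of murine cytomegalovirus (MCMV). They came from 3 MCMV-infected B cell-deficient JHT mice and 3 MCMV-infected wild type (WT) mice, 7 days after infection, with equal cell numbers sorted per group. All mice were adults on the C57BL/6J background, littermates served as WT controls, both sexes were used in the study, and exact ages were not given. JHT mice lack B cells throughout life because the J segments are deleted from their antibody heavy chain locus, so their T cells also developed and were primed without B cells. The deleted segments (Ighj) were not analysed here.

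The listed genes had been chosen for a difference between these same 6 libraries. Recomputed from the values, all 1018 had a ratio of group means of at least 2 in either direction and an unadjusted p under 0.05 in an equal-variance comparison. Phgdh, Psat1 and Odc1 were picked from this selection with their values known, so the JHT and WT levels below are a description and carry no test. The same holds for the other listed genes.

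Serine is made from the glycolytic intermediate 3-phosphoglycerate. Phgdh (phosphoglycerate dehydrogenase) oxidizes it, Psat1 (phosphoserine aminotransferase) adds an amino group from glutamate, and a phosphatase, Psph, releases serine, which supplies carbon for nucleotide synthesis in dividing cells. Odc1 (ornithine decarboxylase) makes putrescine, the precursor of the polyamines spermidine and spermine, and is a short-lived enzyme whose breakdown is driven by antizyme proteins. Both routes are known for their activity in proliferating lymphocytes.

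On GRCm38, Phgdh lies on chromosome 3 (98313170 to 98339990, minus strand), Psat1 on chromosome 19 (15904678 to 15947337, minus strand) and Odc1 on chromosome 12 (17544794 to 17551505, plus strand), and all 3 are annotated as protein coding. Their promoters are shown because the 3 genes were all higher in JHT cells, to set side by side what the regions in front of them share. Each run is taken from the RefSeq promoter table (GRCm38.p6), reads 5′ to 3′ on the gene's strand, and stops where a GENCODE M21 exon of the gene begins. The stretches are chr3:98339991-98340219 for Phgdh, chr19:15925060-15925309 for Psat1 (the first of 2 start sites in the table) and chr12:17544623-17544793 for Odc1. The Psat1 run lies in an intron of a longer annotated transcript. Capitals mark motifs.
Phgdh: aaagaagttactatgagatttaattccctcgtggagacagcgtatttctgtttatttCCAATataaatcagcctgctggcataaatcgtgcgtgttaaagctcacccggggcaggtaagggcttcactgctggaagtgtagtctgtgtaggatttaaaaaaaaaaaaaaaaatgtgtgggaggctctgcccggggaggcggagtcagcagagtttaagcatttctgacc
Psat1: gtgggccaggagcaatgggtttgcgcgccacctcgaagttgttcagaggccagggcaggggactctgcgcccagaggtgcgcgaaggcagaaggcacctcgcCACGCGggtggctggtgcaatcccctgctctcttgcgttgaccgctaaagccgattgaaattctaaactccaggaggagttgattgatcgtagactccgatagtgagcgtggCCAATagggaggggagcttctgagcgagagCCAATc
Odc1: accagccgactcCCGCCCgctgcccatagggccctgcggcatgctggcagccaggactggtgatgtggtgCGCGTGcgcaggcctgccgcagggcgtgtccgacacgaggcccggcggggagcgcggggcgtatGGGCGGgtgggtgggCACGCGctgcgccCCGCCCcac

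The motifs searched on both strands were CACGTG (the E-box that MYC and its partner MAX recognize), its variant CACGCG, the CCAAT box, the GC box GGGCGG, and TGATGNAA, the core of an element bound by ATF4 with C/EBP proteins. Over the 250 bases before the start site, CCAAT matched 2 times each for Phgdh and Psat1 and not for Odc1, CACGCG matched 1 time for Psat1 and 2 times for Odc1, and GGGCGG matched 4 times for Odc1. At the other Psat1 start site, not printed, CACGCG and GGGCGG matched 1 time each and CCAAT did not match. Psat1 thus shared CACGCG with Odc1 at both start sites. It shared CCAAT with Phgdh only at the printed site, and GGGCGG with Odc1 only at the other. CACGTG and TGATGNAA had no match in any of these windows, which says only that the letters are not in these windows. Among 32851 mouse promoters of the same length, CCAAT was present in 33.8%, GGGCGG in 32.7%, CACGCG in 7.62%, CACGTG in 6.02% and TGATGNAA in 3.45%. No match overlapped another in the printed runs, and 1 CCAAT match of Phgdh and 1 GGGCGG match of Odc1 reached past their ends. Of the runs, that of Odc1 was 77.2% G or C, against 59.6% for Psat1 and 44.1% for Phgdh.

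Levels below are the deposited expression values, which the authors scaled for gene length and library. How far they can be compared between libraries rests on that scaling, which is taken up after the values. Whole reads behind each value were recovered from the ratios between libraries. Intervals given with reads are exact 95% Poisson intervals and cover counting error only.

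All 3 genes were higher in virus-specific CD8+ T cells from JHT mice, and in each the JHT values lay above the WT values without overlap. Among the listed genes, 96.6% were higher in JHT cells and 100% had groups that did not overlap, and since the table had been selected on this contrast nothing is read from these counts. In these bulk samples a larger share of cells with a transcript and more transcript per cell cannot be told apart.

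Phgdh, the entry enzyme of serine synthesis, had values of 39.9, 42.7 and 23.0 in the JHT libraries 1 to 3, against 2.25, 9.12 and 5.00 in the WT libraries 1 to 3. JHT-3 was low within its group and WT-2 was high within its own, and the lowest JHT value was still 2.52-fold the highest WT value. The means were 35.2 ± 10.6 in JHT cells and 5.46 ± 3.46 in WT cells (SD, n = 3 each), a 6.45-fold difference. On the log2(value + 1) scale the change was 2.59 ± 0.55 (SE), a scale that understates changes of low values. Without WT-2 the difference was 9.70-fold, and without WT-1, the lowest library, it was 4.98-fold. The reads behind these values numbered 1730, 2391 and 988 in the JHT libraries, against 88, 408 and 237 in the WT libraries.

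Psat1, which takes the Phgdh product to phosphoserine, had values of 18.9, 26.9 and 40.3 in the JHT libraries 1 to 3, against 7.80, 10.1 and 3.48 in the WT libraries 1 to 3. Here JHT-3 was the highest library and WT-3 the lowest, and the lowest JHT value was 1.87-fold the highest WT value. The means were 28.7 ± 10.8 in JHT cells and 7.13 ± 3.36 in WT cells (SD, n = 3 each), a 4.03-fold difference, and the log2 change was 1.90 ± 0.50 (SE). The Psat1 reads numbered 1094, 2007 and 2306 in the JHT libraries, against 406, 602 and 220 in the WT libraries.

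Odc1, the first step of polyamine synthesis, had values of 23.5, 17.2 and 36.3 in the JHT libraries 1 to 3, against 3.71, 11.1 and 6.80 in the WT libraries 1 to 3. JHT-2 and WT-2 came closest to each other, with the lowest JHT value 1.55-fold the highest WT value. The means were 25.6 ± 9.74 in JHT cells and 7.20 ± 3.70 in WT cells (SD, n = 3 each), a 3.56-fold difference, and the log2 change was 1.74 ± 0.49 (SE). The Odc1 reads numbered 1392, 1312 and 2127 in the JHT libraries, against 198, 676 and 440 in the WT libraries.

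**Figure D1:**
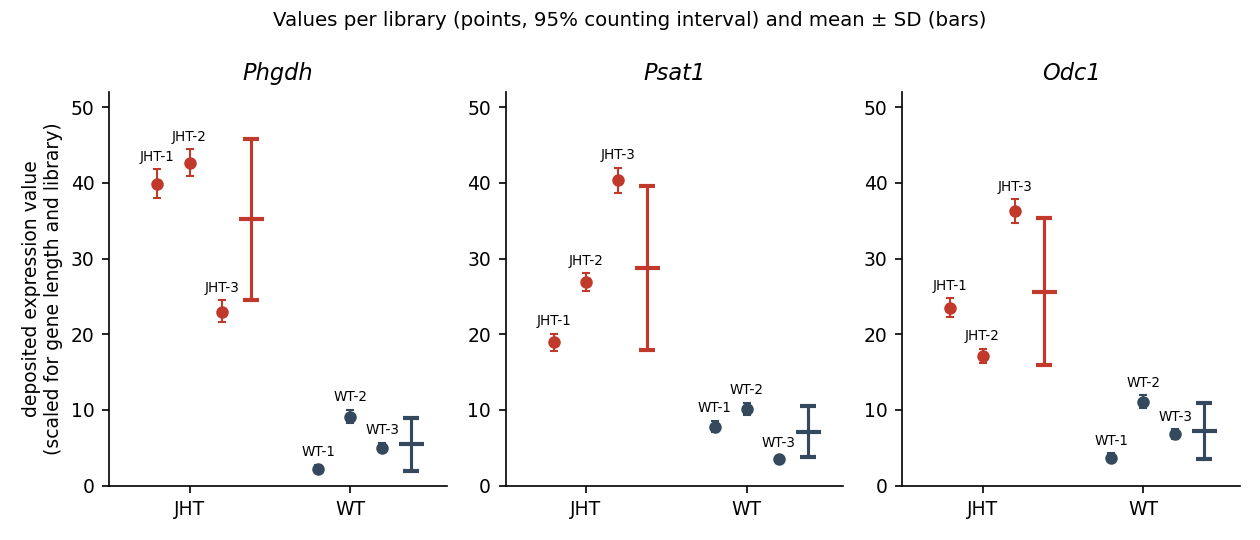
Deposited expression values (y axis, scaled for gene length and library) of Phgdh, Psat1 and Odc1 in the 3 JHT and 3 WT libraries. Points are libraries with the exact 95% counting interval of their reads, and bars beside them are the group mean ± SD. All JHT points lie above all WT points, with the smallest gap in Odc1 (17.2 in JHT-2 against 11.1 in WT-2).

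The order of the fold differences was Phgdh, Psat1, Odc1, and the log2 changes of neighbours in this order differed by less than the sum of their SEs. Without WT-3 the order of Psat1 (3.21-fold) and Odc1 (3.47-fold) was reversed. It was also reversed, by a small margin, for ratios of group medians (3.45 for Psat1 and 3.46 for Odc1). Without JHT-2 both were 4.15-fold higher, with log2 changes of 1.92 for Psat1 and 1.99 for Odc1. Set against the 983 listed genes that were higher in JHT cells, with a median of 2.93-fold, the fold of Phgdh was above 96.0% of the other genes, that of Psat1 above 80.7% and that of Odc1 above 71.9%. The gap between groups gave the same order, and the ratio of lowest JHT to highest WT value, with a median of 1.71 over these genes, was above 88.3% of them for Phgdh, 62.1% for Psat1 and only 36.7% for Odc1. Odc1 thus had a fold above the median and a gap below it.

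**Figure D2:**
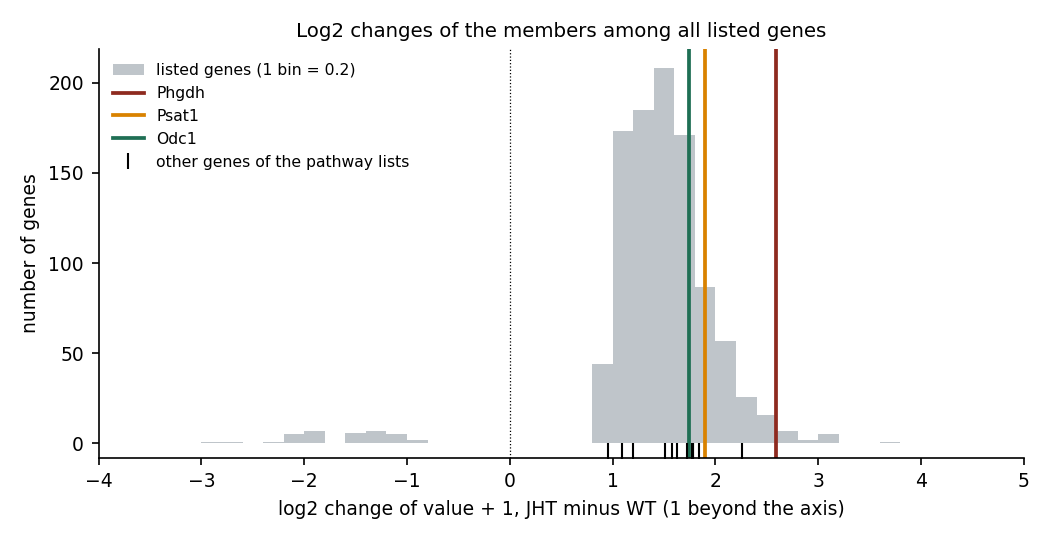
Distribution of the log2 change of value + 1, JHT minus WT (x axis), over the listed genes (y axis, number of genes per bin of 0.2). Vertical lines mark Odc1 (1.74), Psat1 (1.90) and Phgdh (2.59), black ticks mark the other 12 pathway genes with a value, and 1 gene lies beyond the axis. Most listed genes are on the positive side, and Phgdh lies in the right tail.

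In level, the 3 transcripts were ordinary members of the table. In JHT cells the mean of Phgdh was above 56.0% of the other listed genes, that of Psat1 above 48.8% and that of Odc1 above 45.7%. In WT cells the shares were 32.6% for Phgdh, 39.4% for Psat1 and 39.5% for Odc1, so Phgdh had the highest mean of the 3 in JHT cells and the lowest in WT cells. These differences between the 3 means were smaller than their SDs in both groups.

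The 3 genes varied between mice of a group more than most listed genes. The coefficient of variation in JHT cells was 30.2% for Phgdh, 37.6% for Psat1 and 38.0% for Odc1, against a median of 23.2% over the listed genes. In WT cells it was 63.3% for Phgdh, 47.1% for Psat1 and 51.4% for Odc1, against a median of 36.8%.

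Although Phgdh and Psat1 act on consecutive steps, their values did not follow the same order among the mice. Phgdh was lowest among JHT libraries in JHT-3, where only 15.1% of the genes higher in JHT cells had their lowest JHT value and 65.6% had their highest. Psat1 was lowest among WT libraries in WT-3, which held for 17.0% of these genes, whereas 65.8% were lowest in WT-1. Odc1 was lowest in WT-1 and highest in WT-2 and JHT-3, each the most frequent library for these genes, although its lowest JHT value was in JHT-2 and not in the more frequent JHT-1. The full order within both groups was shared by 2.44% of the 982 other genes for Phgdh, 3.56% for Psat1 and 8.86% for Odc1. Many such orders are possible, so a small share, or a different order in 2 genes, is not in itself unusual.

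**Figure D3:**
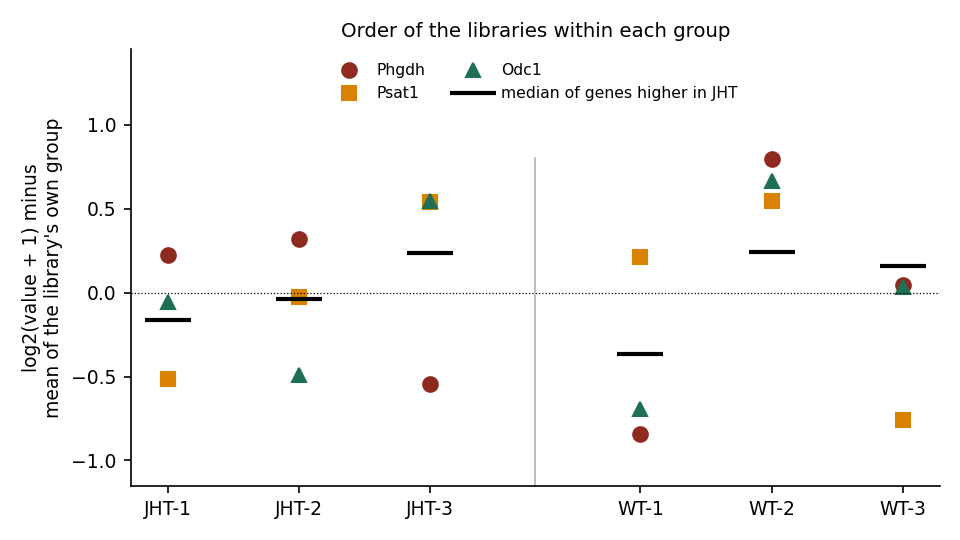
Log2(value + 1) minus the mean of the library's own group (y axis) for Phgdh, Psat1 and Odc1 in each JHT and WT library (x axis), with the median over the genes higher in JHT cells as black bars. In JHT-3 Phgdh lies below its group mean (-0.54) and Psat1 and Odc1 above (0.54 and 0.55). In WT-1 Psat1 lies above (0.21) and Phgdh and Odc1 below (-0.84 and -0.69).

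No ratio between the 3 genes separated the groups. Phgdh over Psat1 was 2.11, 1.59 and 0.570 in the JHT libraries 1 to 3, against 0.289, 0.902 and 1.43 in the WT libraries 1 to 3. The ratio thus spanned low and high libraries in both groups, with means of 1.42 ± 0.781 in JHT cells and 0.875 ± 0.573 in WT cells (SD, n = 3 each). Phgdh over Odc1 was 1.61 ± 0.930 in JHT cells and 0.722 ± 0.109 in WT cells (SD, n = 3 each), with JHT-3 (0.634) inside the WT range. Psat1 over Odc1 averaged 1.16 ± 0.384 in JHT cells and 1.18 ± 0.827 in WT cells (SD, n = 3 each).

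The genes with the most similar profile differed for the 3 enzymes. Likeness was the root mean square distance between log2(value + 1) profiles over the 6 libraries, each centred on the gene's own mean. It includes the difference between groups for which all listed genes were selected. The nearest to Phgdh were Acadvl, a mitochondrial fatty acid oxidation enzyme (distance 0.21), Taf6, a subunit of the general transcription factor TFIID (0.30), and Sdf2l1, an endoplasmic reticulum chaperone cofactor (0.31). The nearest to Psat1 were Kars, the lysyl-tRNA synthetase (0.20), Map2k3, a kinase of the p38 pathway (0.22), and Mettl17, a mitochondrial methyltransferase-like protein (0.24). Odc1 had closer neighbours, namely Gpr180 (0.11), the RNA helicase gene Ddx39b (0.14) and the GTPase gene Gpn3 (0.14).

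None of the 3 enzymes was among the 3 nearest genes of another. Phgdh and Psat1 were 0.85 apart, which placed Psat1 at rank 588 from Phgdh and Phgdh at rank 922 from Psat1. Phgdh and Odc1 were 0.71 apart, with Odc1 at rank 266 from Phgdh and Phgdh at rank 871 from Odc1. Psat1 and Odc1 were 0.57 apart, with Odc1 at rank 274 from Psat1 and Psat1 at rank 702 from Odc1. The median distance to all listed genes was 0.82 for Phgdh, 0.65 for Psat1 and 0.47 for Odc1, so Odc1 was nearer than most genes to the other two, while most genes were nearer to Odc1 than they were.

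The wider pathway was represented by few genes. Of 98 genes in 12 lists around serine and polyamine metabolism, 15 had a value in the table, and all 15, the 3 enzymes included, were higher in JHT cells, against 96.6% of all listed genes. The 12 other genes had a median of 3.28-fold (range 2.18 to 4.46), beside 2.93-fold for all genes that were higher. The remaining 83 genes, among them Psph, the polyamine enzymes Amd1, Srm and Sms, and the transcription factors Myc and Atf4, were not analysed here.

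On the glycolytic side, all 4 enzymes in the list of steps around 3-phosphoglycerate had values. Pgam1, the mutase that draws the same substrate into lower glycolysis, had values of 73.0, 85.6 and 129.8 in the JHT libraries, against 19.2, 29.1 and 37.5 in the WT libraries, a 3.36-fold difference. Pgk1, the kinase that forms 3-phosphoglycerate, was 3.37-fold higher, Gapdh, which acts just before it, 3.32-fold and Eno1, the enolase after Pgam1, 4.46-fold. Phgdh over Pgam1, the balance of the transcripts for the enzymes that compete for 3-phosphoglycerate, was 0.546, 0.498 and 0.177 in the JHT libraries 1 to 3, against 0.117, 0.314 and 0.133 in the WT libraries 1 to 3, so the groups overlapped.

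Gapdh was itself higher in JHT cells, and the levels of the 3 enzymes were also set against it within each library. Phgdh over Gapdh was 0.136, 0.119 and 0.0532 in the JHT libraries 1 to 3, against 0.0365, 0.0663 and 0.0391 in the WT libraries 1 to 3. Only JHT-1 and JHT-2 lay above all WT libraries, and the means differed 2.17-fold. Psat1 over Gapdh averaged 0.0776 ± 0.0146 in JHT cells and 0.0758 ± 0.0497 in WT cells, and Odc1 over Gapdh 0.0707 ± 0.0198 in JHT cells and 0.0647 ± 0.0142 in WT cells (SD, n = 3 each). Both of these ratios overlapped between groups, with means 1.02-fold and 1.09-fold apart.

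**Figure D4:**
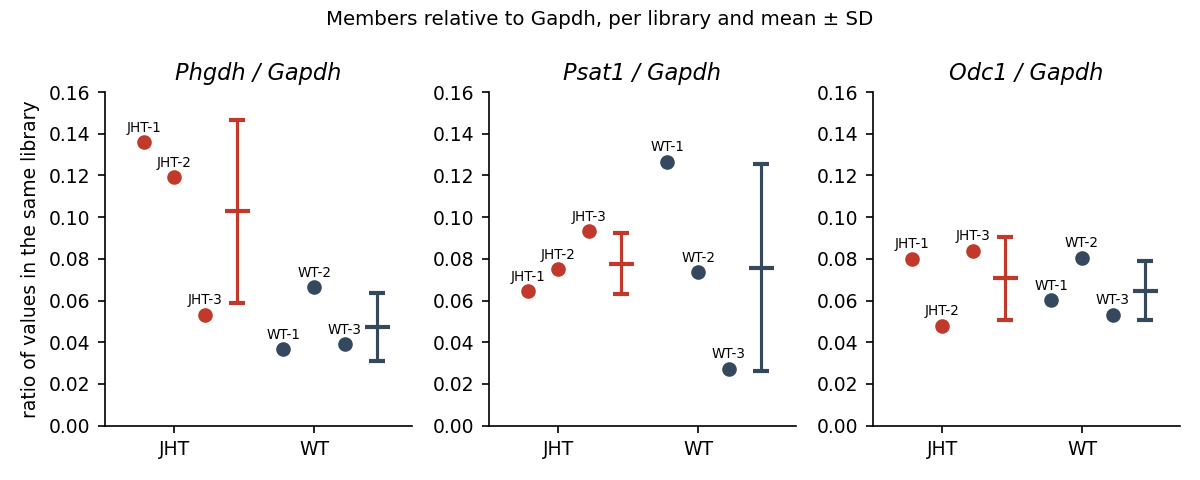
Ratio of Phgdh, Psat1 and Odc1 to Gapdh within each library (y axis) in JHT and WT cells. Points are libraries and bars are the mean ± SD of 3 libraries. The groups overlap in all 3 panels, and Phgdh in JHT-1 (0.136) and JHT-2 (0.119) lies above the highest WT library (0.0663).

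Downstream of serine, 2 of 19 genes of one-carbon metabolism had values. Mthfd2, a mitochondrial folate enzyme, had values of 17.2, 16.8 and 23.3 in the JHT libraries, against 1.29, 9.84 and 5.89 in the WT libraries, a 3.37-fold difference. Mthfd2 shared with Phgdh and Odc1 the lowest value in WT-1 and the highest WT value in WT-2. Of the genes higher in JHT cells, 65.8% were lowest among WT libraries in WT-1 and 50.5% highest in WT-2. Of 9 transport genes, 3 had values: Sfxn1, a mitochondrial serine carrier (2.82-fold), its relative Sfxn3 (2.59-fold) and Slc3a2, the heavy chain of amino acid exchangers (3.25-fold). Ahcy, the adenosylhomocysteine hydrolase of the methionine cycle, was the 1 gene of 10 in its list with values, 12.4, 13.0 and 10.8 in the JHT libraries, against 4.09, 2.40 and 3.32 in the WT libraries. None of the 10 genes of serine use in lipids and cysteine and none of the 13 genes of glutamate, aspartate and proline metabolism had a value.

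On the polyamine side, Odc1 was the 1 of 7 synthesis genes with a value, and none of 7 genes of polyamine breakdown and export had one. Eif5a, the translation factor that carries hypusine, a residue built from spermidine, had values of 368, 403 and 595 in the JHT libraries, against 70.9, 180.4 and 170.5 in the WT libraries, a 3.24-fold difference. Oaz2, an antizyme that directs Odc1 protein to the proteasome, had values of 11.7, 8.00 and 7.82 in the JHT libraries, against 5.14, 4.06 and 3.40 in the WT libraries, the smallest fold of the 15 genes (2.18-fold). Odc1 over Oaz2 was 2.01, 2.14 and 4.64 in the JHT libraries 1 to 3, against 0.722, 2.73 and 2.00 in the WT libraries 1 to 3, so the balance of enzyme and antizyme transcripts overlapped between groups.

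The size of every difference rested on the scaling between libraries. The median value over the listed genes was 25.0 to 32.6 in the JHT libraries, against 7.63 to 11.6 in the WT libraries. The sum of the listed values differed far less, with 121001 to 129800 in the JHT libraries, against 101600 to 113806 in the WT libraries. Setting these medians equal removes a shared rise by construction, whatever its source, and lowered the median log2 change of the listed genes by 1.42. Phgdh was then 2.47-fold higher in JHT cells, Psat1 1.33-fold and Odc1 1.28-fold. Taken as log2 distance from the library's own median, Phgdh stood at 0.65, 0.58 and -0.48 in the JHT libraries 1 to 3, against -1.41, -0.32 and -0.97 in the WT libraries 1 to 3, so its groups overlapped through JHT-3. Psat1 at -0.38, -0.07 and 0.30 in the JHT libraries, against 0.03, -0.18 and -1.39 in the WT libraries, overlapped as well, and so did Odc1 at -0.09, -0.69 and 0.15 in the JHT libraries, against -0.87, -0.06 and -0.60 in the WT libraries. Of the 15 pathway genes, 12 stayed higher, beside 533 of the 983 listed genes that were higher under the deposited scaling, and Sfxn3 and Oaz2 were among those that turned lower.

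**Figure D5:**
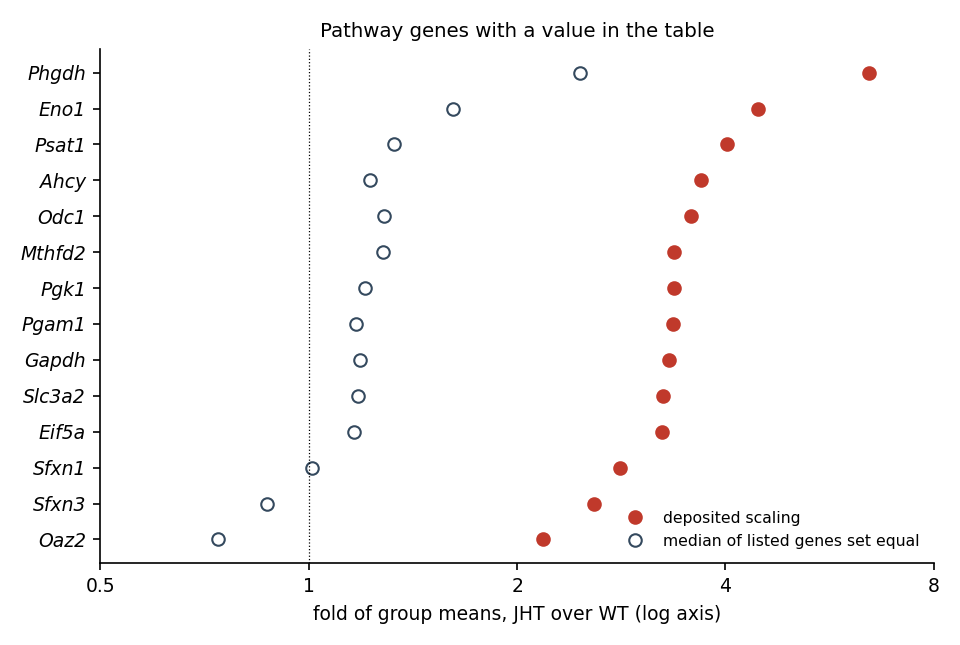
Fold of group means, JHT over WT (x axis, log scale), for 14 of the 15 pathway genes with a value (y axis). Filled points use the deposited scaling and open points the values after the library medians over listed genes were made equal. Phgdh has the highest fold under both (6.45 and 2.47), and Sfxn3 and Oaz2 lie below 1 after rescaling.

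Reads of 2 of the 3 genes could be confused with those of other genes. Of the 150-base stretches of the longest annotated coding transcript, 23.1% for Phgdh, 3.55% for Odc1 and 0 of 2468 for Psat1 also occurred in a transcript of another gene, and at 75 bases the shares were 47.4%, 30.5% and 0 of 2543. The other genes were 13 for Phgdh and 13 for Odc1, of which 12 each were annotated as pseudogenes, and none of them was in the table. How the authors counted reads that match several places was not given, so the values of Phgdh and Odc1 are uncertain to that extent.

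Few cell type markers were available to check the sort. Of 10 CD8 T cell markers only Lck had values, 554, 660 and 768 in the JHT libraries, against 184, 381 and 299 in the WT libraries, and CD8 itself was not analysed here. Of 26 markers of CD4 T, B, NK, myeloid and erythroid cells, only Bpgm of the 7 erythroid markers was present, with 13.9, 13.1 and 10.2 in the JHT libraries, against 1.65, 6.14 and 4.45 in the WT libraries, and the hemoglobin genes were not analysed here. Bpgm was higher in JHT cells, as were 96.6% of the listed genes. Among JHT libraries it was lowest in JHT-3, as was Phgdh, whereas Psat1 and Odc1 were highest there. Among WT libraries it was lowest in WT-1 and highest in WT-2, as were both Phgdh and Odc1. The part of Bpgm-carrying cells in the difference of the 3 enzymes was not tested. WT-1 had the lowest WT value in 65.8% of the genes higher in JHT cells, including Phgdh and Odc1, and without it the folds were 4.98 for Phgdh, 4.23 for Psat1 and 2.87 for Odc1.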

How the data were processed

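RNA of sorted M45 tetramer+ CD8+ T cells was amplified as full-length cDNA (SMART-Seq), and Nextera XT libraries were sequenced as paired-end reads. The authors trimmed adaptors and used CLC Genomics Workbench at default RNA-seq settings with GRCm38. The annotation they counted on is not given in the sources used here, nor is the handling of reads that match several places. Each deposited value is an expression signal of 1 gene in 1 library, to which the authors applied a scaling for length and depth (RPKM or TPM, which was not given). Its columns of differences, fold changes and p-values between groups were not used. Libraries were grouped by title, and each came from 1 mouse.

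Whole reads were recovered for 1018 of 1018 genes as the smallest whole numbers in the ratio of a gene's values, within 0.001, after 1 constant per library. The procedure was tested on simulated data, where simulated reads were first divided by any factor common to all 6 libraries. Reads with such a factor are therefore recovered too small, and the test did not score this as an error. The listed genes held 4040416 to 5742545 reads in the JHT libraries, against 1909193 to 2888084 in the WT libraries. These are not library totals, so depth is unknown. Per kb of exon, the reads per unit of value in JHT-1 were 17.5 for Phgdh, 13.6 for Psat1 and 17.4 for Odc1, beside a median of 17.0 over 981 genes. Positions are from GENCODE M21.

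Folds are ratios of group means, and log2 changes use a pseudocount of 1. No test was made, since the genes were selected on the same contrast, and an exact two-sided permutation test of 3 against 3 cannot go below p = 0.1. The 3 genes, the pathway lists and the rule for named genes (the 3 enzymes, listed genes of the lists, and the 3 genes nearest to each enzyme) were chosen with earlier results of these data known. The values of 1 gene of the pathway lists are not reported here. Alternatives were an equal median, quantile normalization, other pseudocounts, a filter on low values, medians for means, Pearson correlation as likeness, and leaving out each library. Python 3.11.15, pandas 2.3.3 and scipy 1.17.1 were used.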

Additional observations from a re-analysis of the deposited data

How the results depend on the processing

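With library medians over listed genes made equal, the log2 change was 1.22 for Phgdh, 0.49 for Psat1 and 0.34 for Odc1, and the folds were 2.47, 1.33 and 1.28. With quantile normalization over the listed genes the log2 changes were 1.19, 0.44 and 0.35 in the same gene order, and the folds were 2.41, 1.29 and 1.27. Both take away the shared rise by construction. Leaving out each library in turn gave log2 changes of 2.17 to 2.99 for Phgdh, 1.52 to 2.18 for Psat1 and 1.39 to 2.07 for Odc1, and folds of 4.98 to 9.70, 3.21 to 5.09 and 2.83 to 4.88. Pseudocounts of 0.1 and 5 gave log2 changes of 2.83 and 1.96 for Phgdh, 2.06 and 1.47 for Psat1, and 1.89 and 1.33 for Odc1. Ratios of medians gave folds of 7.97, 3.45 and 3.46. All 15 pathway genes stayed higher without any 1 library and with a filter that kept genes with a value of 1 or more in 3 or more libraries, and 12 did under each rescaling, beside 533 of the 983 higher listed genes with equal medians and 515 with quantile normalization. With Pearson correlation as likeness, 0 of the 3 nearest genes were shared for Phgdh, 1 for Psat1 and 1 for Odc1, so the named neighbours depend on the measure. No paired analysis was possible because the values come from no test and nothing in the labels ties equal replicate numbers to a shared litter, batch or day. Genes outside the selection were not analysed here, and library totals are unknown.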
